A study of Rattus norvegicus with 63 samples.

Results

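rno-miR-34a, rno-miR-34b and rno-miR-34c (miR-34a, miR-34b and miR-34c), the 3 guide strands of the rat miR-34 family, were followed in the liver of 63 male Wistar Hanover rats given 1 of 15 compounds or a vehicle. The members were taken by name, without the starred partner strands, and make up 3 of the 350 rat miRNAs on the array. The rats were 8 to 10 weeks old and were dosed by gastric gavage, and each of the 21 groups holds 3 rats. Dose groups had 5 rats, and for the compounds the study took 3 whose livers showed histopathological changes, so their values describe selected livers; how the vehicle rats were taken is not given in the sources used here. The 8 non-genotoxic hepatocarcinogens (NGC) were phenobarbital sodium (PB, dose not in the labels, 14 days), piperonylbutoxide (PBO, 1200 mg/kg/day, 3 days), dehydroepiandrosterone (DHEA, 600 mg/kg/day, 14 days), acetamide (AA, 3000 mg/kg/day, 14 days), methapyrilene HCl (MPy, 60 mg/kg/day, 7 days), methylcarbamate (Mcarb, 400 mg/kg/day, 14 days), diethylstilbestrol (DES, 10 mg/kg/day, 3 days) and ethionine (ETH, 200 mg/kg/day, 14 days). The 2 genotoxic carcinogens (GC) were C.I. Direct Black (CIDB, 146 mg/kg/day, 7 days) and dimethylnitrosamine (DMN, 4 mg/kg/day, 7 days). The 2 non-hepatocarcinogens (NC) were cefuroxime (CFX, 250 mg/kg/day, 14 days) and nifedipine (Nif, 3 mg/kg/day, 14 days). Cyproterone acetate (CPA, 100 mg/kg/day, 14 days), thioacetamide (TAA, 19.2 mg/kg/day, 7 days) and Wy-14643 (Wy, 60 mg/kg/day, 3 days) carry an undefined class. CIDB and DMN were set against corn oil (CO) set 3, labelled 7 days, and CPA against CO set 4. The other compounds were set against methylcellulose (MC) sets 1, 2, 5 and 6, all labelled 14 days. The study's methods call the vehicle groups time-matched, whereas by the labels PBO, DES and Wy (3 days) and MPy and TAA (7 days) were set against 14-day MC sets, and the label durations were kept.

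The miR-34 genes are known as direct targets of p53, the transcription factor that is stabilised after DNA damage. Their mature miRNAs bind transcripts of cell cycle and survival genes, among them Cdk4, Cdk6, Ccnd1, Met and Bcl2, and reduce their output. miR-34a is made from its own gene and is found in many tissues, whereas miR-34b and miR-34c are cut from a shared transcript and are known mainly from ciliated epithelia, testis and lung.

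The mature sequences are given 5′ to 3′ from RefSeq (build GRCr8), because the members differ in their array signal while sharing the bases that select targets. The seed, bases 2 to 8, is in capitals.
rno-miR-34a-5p: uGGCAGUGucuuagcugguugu
rno-miR-34b-5p: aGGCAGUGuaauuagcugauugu
rno-miR-34c-5p: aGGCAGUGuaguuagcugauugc
rno-miR-449a-5p: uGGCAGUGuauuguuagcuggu
miR-34a lies on the plus strand at chr5:165815971-165815992, within the bounds of an annotated long non-coding RNA gene. miR-34b, at chr8:60306657-60306679, and miR-34c, at chr8:60306133-60306155, lie 502 bases apart on the minus strand within the bounds of Hoatz, a protein-coding gene. Counted position by position, miR-34b and miR-34c had the same base at 21 of 23 positions, against 11 for miR-34a and either of them. The lengths differ, and with gaps allowed miR-34a shared 19 bases in order with miR-34b and 18 with miR-34c. Of 724 mature rat miRNAs in the table, 5 hold this seed; miR-449a was also on the array and miR-449c was not.

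Each member was read by 2 probes with 10 spots each. Levels are log2 of the quantile-normalised spot brightness with no background subtracted. On this scale an unbound probe reads about 7.4, so fold changes of dim miRNAs are understated. A scaled signal, the scanner software's background-subtracted brightness brought to a common 75th percentile, is given beside it in arbitrary units. The scanner software marked 81 to 151 miRNAs per array as detected (median 107), and 162 were detected on at least 1 array and tested. miR-122, the hepatocyte miRNA, was the brightest miRNA on all 63 arrays. All 3 members passed this filter, miR-34b and miR-34c only through CIDB and DMN arrays. In 15 of 63 columns of the authors' value table the values followed the array of another sample: DES and DHEA were exchanged, as were MC sets 1, 2 and 5 among themselves. Labels were kept as deposited, and the miR-34a fold changes that rest on these groups are also given with the arrays exchanged, where no call of miR-34b or miR-34c changed. A miRNA was called where limma's Benjamini-Hochberg adjusted p over the 162 miRNAs was under 0.05. Nothing in the labels ties rats to litters or days, and p-values measure the spread between these livers. Each SE and p-value of a fold change uses a residual spread shared by all 21 groups, unless another fit is named.

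miR-34a was the member with the widest range. It was detected on 59 of 63 arrays and spanned 7.49 to 11.46 on the log2 scale. In the 18 vehicle rats it was detected on every array and lay between 7.62 and 8.03, with a median of 7.79. It was called higher in 7 of 15 compounds, comprising both GC, 4 of 8 NGC and TAA, and in neither NC; by compound, between 0% and 21% of all tested miRNAs were called higher. In the order of the 21 group means, 17 of 20 neighbouring pairs of groups had overlapping rats. The 3 breaks lay between CIDB and DMN, between ETH and MPy and between MPy and AA.

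**Figure D1:**
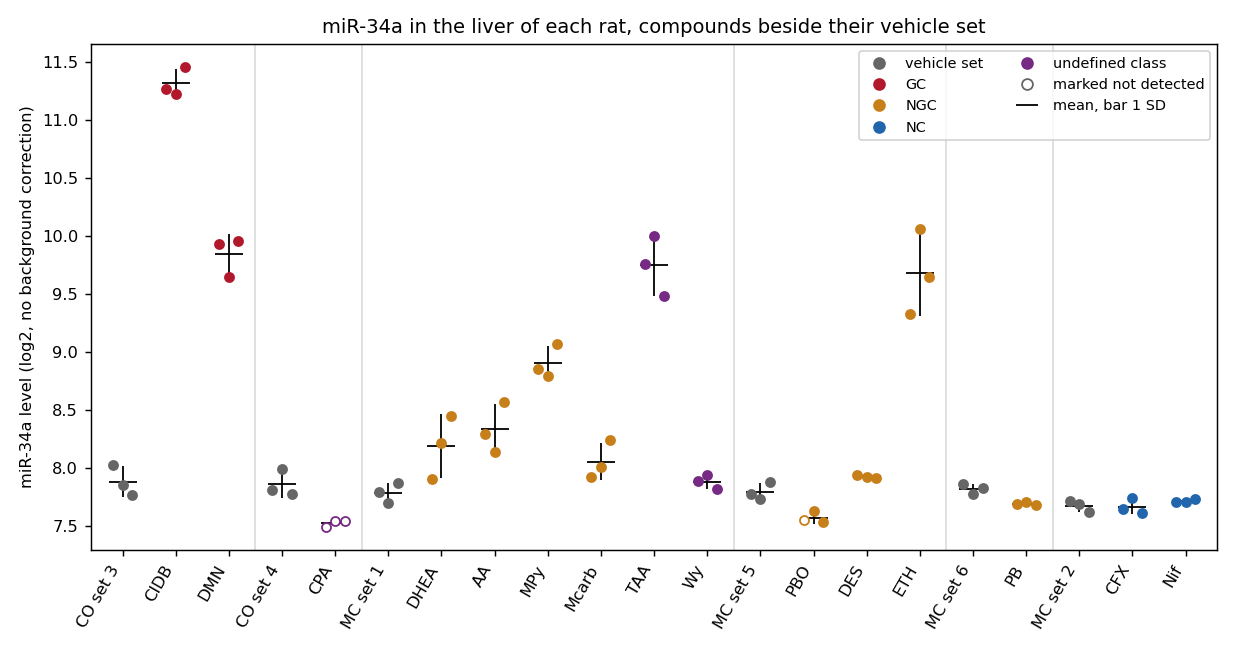
miR-34a level of each rat (log2, no background correction) in 21 groups of 3, each compound to the right of its vehicle set, coloured by class; open circles are arrays marked not detected, and the line and bar give the mean and 1 SD. CIDB rats lie between 11.23 and 11.46, above every other rat, and the CPA rats lie between 7.49 and 7.55.

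CIDB, an azo dye that is metabolised to benzidine, gave the highest miR-34a levels in the series. The 3 CIDB rats read 11.27, 11.23 and 11.46, and the CO set 3 rats 8.03, 7.85 and 7.77. No rat of either group came near the other. The log2 fold change was 3.44 ± 0.12 (SE, n = 3 and 3; adjusted p = 1.8e-27), the largest of 162 tested miRNAs, of which 13% were called higher. In scaled signal the mean was 65.0 times that of CO set 3, with 3811, 3145 and 3770 units in CIDB rats against 74.3, 47.9 and 42.6. The CIDB arrays lay on 3 slides, and the rat that shared its slide with CO set 3 differed from that set by 3.58.

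DMN, an alkylating nitrosamine, ETH, an ethylating analogue of methionine, and TAA, a thioamide that is bioactivated in the liver, raised miR-34a to overlapping levels. The DMN rats read 9.93, 9.65 and 9.96, all above CO set 3, and the fold change was 1.96 ± 0.12 (adjusted p = 7.8e-18). The ETH rats read 9.33, 10.07 and 9.65 against 7.77, 7.73 and 7.88 in MC set 5, a difference of 1.89 (adjusted p = 3.5e-17). The TAA rats read 9.76, 10.00 and 9.48 against 7.80, 7.70 and 7.87 in MC set 1, a difference of 1.96 (adjusted p = 8.1e-18). Among the tested miRNAs 13.6% were called higher in DMN, 6.17% in ETH and 9.88% in TAA, and miR-34a had the largest rise in each. The TAA rise rests on MC set 1 and the ETH rise on MC set 5, and with the arrays exchanged they were 1.95 (adjusted p = 9.2e-18) and 2.01 (adjusted p = 3.5e-18). DMN shared no slide with CO set 3, and ETH none with MC set 5. TAA shared neither slide nor scan day with MC set 1. Slide and compound cannot be told apart within these pairs.

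MPy, a histamine receptor blocker and hepatotoxicant, came next. Its rats read 8.86, 8.80 and 9.07, apart from those of MC set 1, and the fold change was 1.12 ± 0.12 (adjusted p = 1.3e-09) where 8.02% of miRNAs were called higher. In AA the levels were 8.29, 8.14 and 8.57 and the fold change 0.55 ± 0.12 (adjusted p = 0.0016, with 8.02% called higher). The AA call was lost with slide as a fixed block (0.70, adjusted p = 0.398) and with AA and MC set 1 alone in the fit (adjusted p = 0.159). With the arrays exchanged the fold changes were 1.11 in MPy (adjusted p = 1.5e-09) and 0.54 in AA (adjusted p = 0.0048). AA and TAA differ by oxygen against sulfur in the amide group; AA was given at 3000 mg/kg/day for 14 days and TAA at 19.2 mg/kg/day for 7 days, and their miR-34a values stand side by side without a comparison.

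The arrays labelled DHEA, an androgen precursor, gave the smallest called rise. They read 7.91, 8.22 and 8.45, all above MC set 1, with a fold change of 0.40 ± 0.12 (adjusted p = 0.0123, with 9.88% called higher). The arrays labelled DES, a synthetic oestrogen, read 7.94, 7.93 and 7.92 and differed from MC set 5 by 0.13 (adjusted p = 0.396), where 21% were called higher. With the arrays exchanged as the value table's columns follow them, the fold change was 0.13 for DHEA (adjusted p = 0.396) and 0.52 for DES (adjusted p = 0.0015). The DHEA call was also lost without DHEA replicate 2, without DHEA replicate 3 and without MC set 1 replicate 5, with fold changes from 0.27 to 0.55 over the 6 rats left out in turn. It was lost, too, in the authors' value table (0.60, adjusted p = 0.0949), with slide as a fixed block (0.29, adjusted p = 0.708) or a random block (0.38, adjusted p = 0.0700), with only the compared groups in the fit (adjusted p = 0.147) and with probe 1 alone (0.31, adjusted p = 0.0620). DES was called in the authors' value table (2.04, adjusted p = 2.3e-07) and with only the compared groups in the fit (adjusted p = 0.0488). The labels and the value table thus give the call to different compounds.

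In the remaining compounds miR-34a was not called. Mcarb, a small carbamate, read 7.92, 8.01 and 8.24, above all 3 rats of MC set 1, with a difference of 0.27 (adjusted p = 0.181, with 1.23% called higher). It stayed uncalled under 13 of 15 alternatives, scaling over all probes among them. Calls came in the authors' value table (1.05, adjusted p = 0.0481) and in the scaled signal (1.18, adjusted p = 0.0046). Wy, a PPARα agonist, differed by 0.09 (11.7% called higher) and PB, the barbiturate inducer of Cyp2b, by -0.13 (2.47% called higher). CFX, a cephalosporin antibiotic, and Nif, a calcium channel blocker, differed from MC set 2 by -0.01 and 0.04. In both NC 0% of miRNAs were called higher. With the arrays exchanged the differences were 0.26 in Mcarb, 0.09 in Wy, -0.12 in CFX and -0.07 in Nif, and none was called.

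CPA, a steroidal antiandrogen, and PBO, a cytochrome P450 inhibitor, had the lowest miR-34a. The CPA rats read 7.49, 7.55 and 7.54, below all CO set 4 rats at 7.81, 8.00 and 7.78, and miR-34a was marked as detected in none of the CPA rats but in all 3 vehicle rats. The difference was -0.33 ± 0.12 (adjusted p = 0.109, not called), the lowest of the 162 tested miRNAs. Of all tested miRNAs 9 were called in CPA in either direction, 6 of them (3.7% of all) higher. Because miR-34a was not well above background in any CPA rat, the fall is a bound, at least 1.25-fold. It was called lower under 7 of 16 alternatives, among them normexp background correction (-0.61, adjusted p = 0.0159), the authors' value table (-2.05, adjusted p = 5.6e-07) and the scaled signal (-1.80, adjusted p = 1.5e-05). The PBO rats read 7.55, 7.63 and 7.53, below MC set 5, with a difference of -0.23 (adjusted p = 0.223, with 4.94% called higher), and were called lower in the scaled signal (-1.27, adjusted p = 0.0026). The share of all miRNAs called lower was not counted for PBO. With the arrays exchanged the PBO difference was -0.11 (adjusted p = 0.588).

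**Figure D2:**
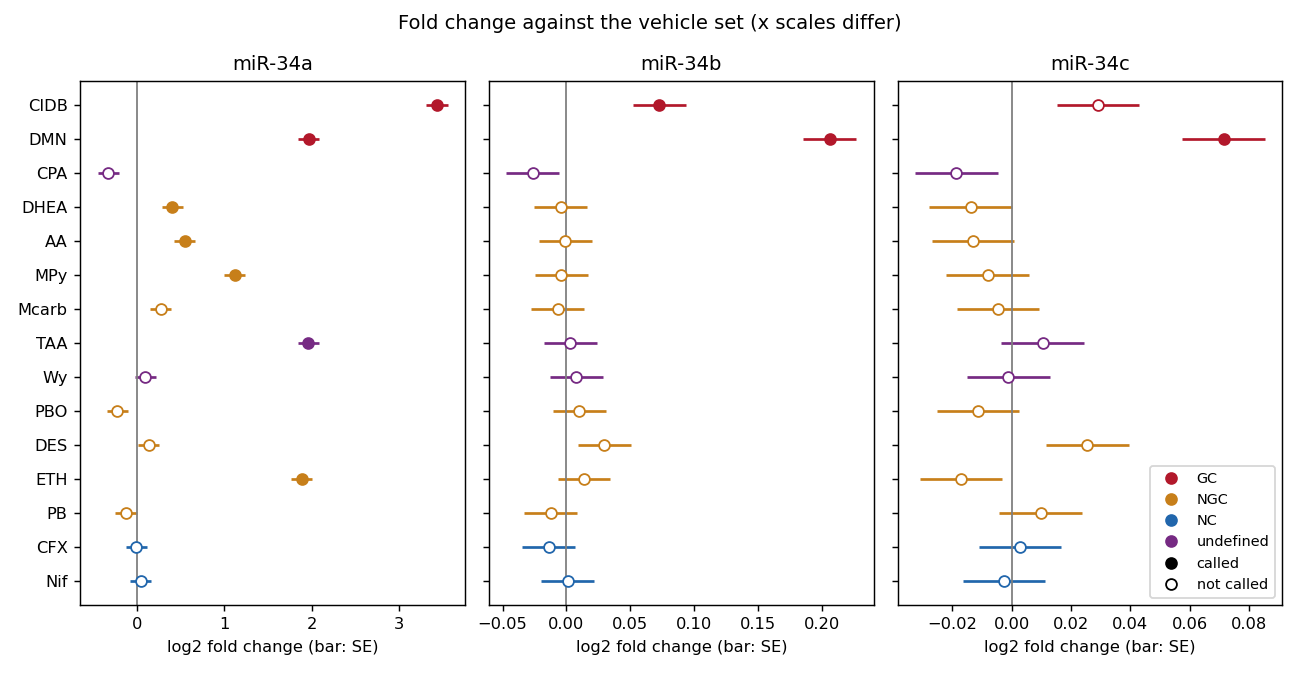
log2 fold change of each member (x axis, a separate scale per panel) for 15 compounds against their vehicle set, with the SE as a bar; filled points were called and colours give the class. miR-34a was called higher in 7 compounds, miR-34b in CIDB and DMN, and miR-34c in DMN.

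miR-34b was near the reading of an unbound probe in nearly all livers and was marked as detected on 6 of 63 arrays, those of the 3 CIDB and 3 DMN rats. The DMN rats read 7.80, 7.61 and 7.67, the CIDB rats 7.56, 7.56 and 7.57, and CO set 3 read 7.50, 7.50 and 7.46. The other 57 rats, vehicle and treated, lay between 7.42 and 7.52, so none of them reached the lowest genotoxic rat. In scaled signal the DMN rats had 52.9, 21 and 29.2 units and the CIDB rats 17.5, 17.8 and 14.8, while the 57 others had 0.976 to 9.15 units with a median of 5.31. The authors' value table showed the same gap, at 3.80 to 5.39 in the 6 genotoxic rats and 2.86 to 3.29 in the others.

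Against CO set 3, miR-34b rose by 0.21 ± 0.02 in DMN (SE, n = 3 and 3; adjusted p = 6.5e-11) and by 0.07 ± 0.02 in CIDB (adjusted p = 0.0087). Since miR-34b entered the tested set through these 6 arrays alone, the test was also run over all 350 miRNAs with no filter, where the adjusted p was 9.4e-11 in DMN and 0.0145 in CIDB. The scanner's stricter mark, well above background, was given to 1 DMN and 1 CIDB rat and to none of CO set 3, so the size of the rise is a bound, at least 1.08-fold in DMN on the level scale, and no bound above 1 was obtained for CIDB. The CIDB call was lost with 1 probe alone (0.03, adjusted p = 0.252), with slide as a fixed block (0.08, adjusted p = 0.088) and without CO set 3 replicate 6 (0.06, adjusted p = 0.0668). The SE of 0.02 draws on all 21 groups, most of them without detected miR-34b, and understates the spread of the DMN rats. Their SD was 0.10, against 0.03 in CO set 3. With only the compared groups in the fit the SE in DMN was 0.05, and both calls were lost (adjusted p = 0.0689 in DMN and 0.0575 in CIDB). No DMN array shared a slide with CO set 3, so slide and compound cannot be told apart within that pair. No other compound was called, with differences from -0.03 in CPA to 0.03 in DES and a lowest adjusted p of 0.261. The order of group means had 2 breaks among 20 neighbouring pairs, between DMN and CIDB and between CIDB and CO set 4.

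**Figure D3:**
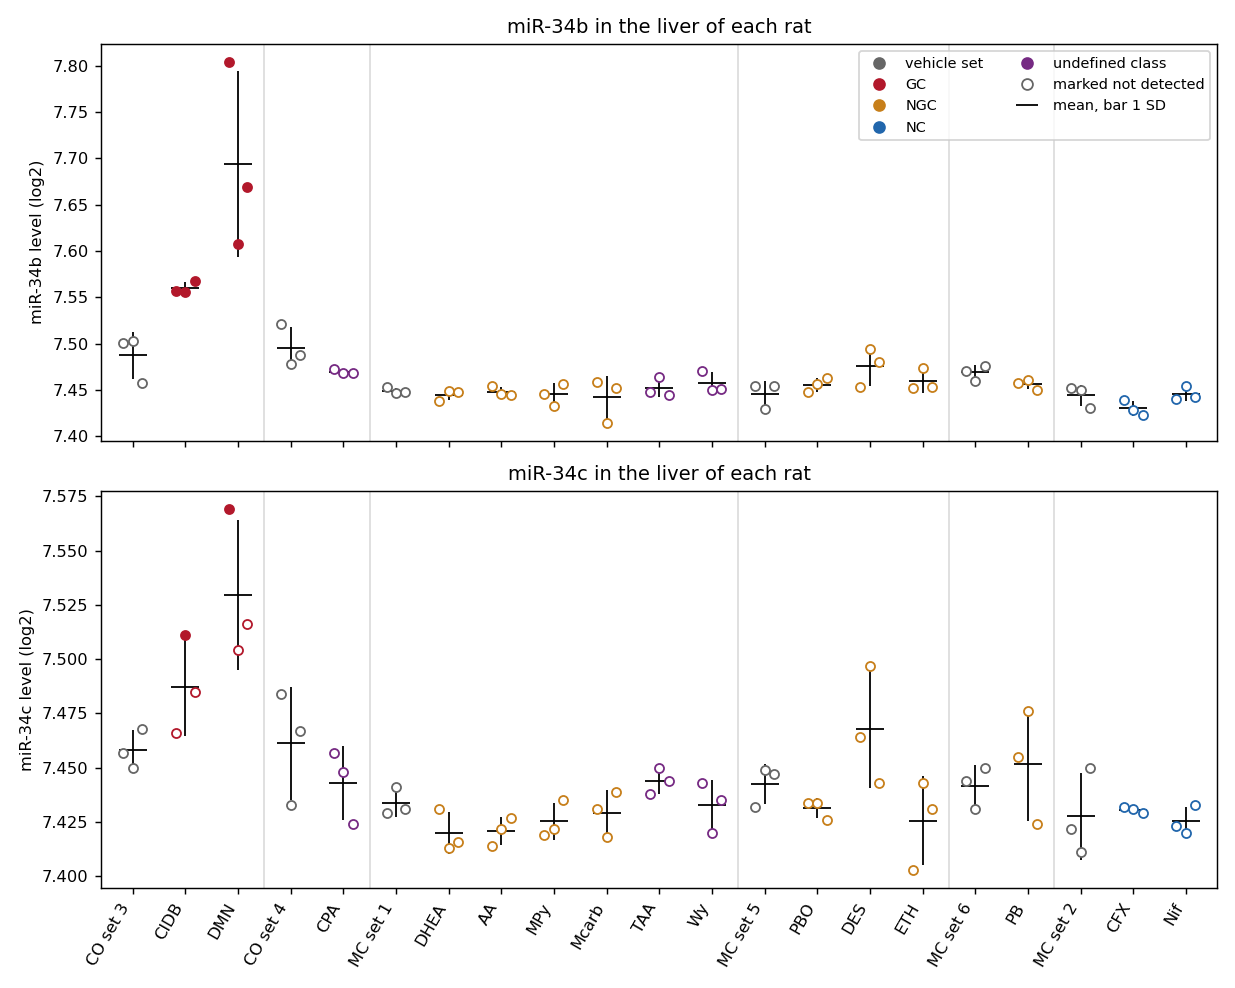
miR-34b (top) and miR-34c (bottom) level of each rat (log2, no background correction) in 21 groups of 3, coloured by class; filled circles are arrays marked as detected, and the line and bar give the mean and 1 SD. All 6 filled miR-34b circles belong to CIDB and DMN, at 7.56 to 7.80 against 7.42 to 7.52 in the other 57 rats.

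miR-34c was dimmer still and was marked as detected on 2 arrays, CIDB replicate 2 and DMN replicate 1. The DMN rats read 7.57, 7.50 and 7.52 against 7.46, 7.45 and 7.47 in CO set 3, without overlap. The difference was 0.07 ± 0.01 (adjusted p = 8.4e-05, and 1.1e-04 over all 350 miRNAs with no filter), and in scaled signal 23.4, 12.1 and 13.9 units stood against 2.06, 2.11 and 7.64. Of these 6 rats 1 was marked as detected and none as well above background, so no fold is given. In CIDB the rats read 7.47, 7.51 and 7.49 and overlapped CO set 3, with a difference of 0.03 (adjusted p = 0.127). The 2 probes disagreed: in DMN one rose by 0.15 and the other changed by -0.01, and in CIDB by 0.06 and 0.00. All 20 neighbouring pairs in the order of miR-34c group means overlapped. Whether the miR-34c probes also took up miR-34b, which shares 21 of 23 bases, was not tested. Nor was it tested whether the miR-34b or miR-34c probes took up miR-34a, which was far brighter in CIDB and DMN.

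Liver is a mixture of cells, and in bulk RNA fewer cells of a type and less RNA per cell cannot be told apart. In DMN, 4 of 5 tested leukocyte miRNAs were called higher, against 13.6% of all miRNAs: miR-142-3p by 0.76, miR-146a by 0.49, miR-223 by 0.40 and miR-142-5p by 0.18. The log2 of the summed leukocyte level was 10.5 to 10.9 in DMN rats and 10.2 to 10.3 in CO set 3. In CIDB 0 of the 5 were called higher and 1 lower, miR-223 at -0.15, against 13% and 7.41% of all miRNAs. The summed leukocyte level there was 10.2 in all 3 rats. Of the 3 hepatocyte miRNAs, 2 were called lower in CIDB (7.41% of all miRNAs), miR-122 at -0.33 and miR-192 at -0.50, with miR-194 at -0.14 (adjusted p = 0.124). In DMN 1 of 3 was called lower (9.88% of all), miR-122 at -0.09, with miR-192 at 0.04 (adjusted p = 0.772) and miR-194 at -0.14 (adjusted p = 0.135). Among epithelial miRNAs, 3 of 5 were called higher in CIDB, against 13% of all miRNAs, and 0 of 5 in DMN. Of 4 mesenchymal miRNAs, 3 were called lower in DMN and none in CIDB, where 9.88% and 7.41% of all miRNAs were called lower. The endothelial miR-126 fell by 0.18 in DMN. Of 2 erythroid miRNAs none was called in either. miR-145, a smooth muscle marker, was detected on no array. In ETH, 3 of 5 leukocyte miRNAs were called higher (6.17% of all miRNAs), miR-142-3p by 0.32, miR-146a by 0.23 and miR-142-5p by 0.09, and the summed leukocyte level was 10.5 to 10.6 against 10.3 to 10.4 in MC set 5. Of the hepatocyte miRNAs 2 of 3 were called lower in ETH (9.88% of all miRNAs), miR-192 at -0.66 and miR-194 at -0.55, while miR-122 was at 0.00. Quantile normalisation holds the brightest miRNA of every array near a shared top value. miR-122 was the brightest on all 63 arrays, so its values in CIDB, DMN and ETH are a weak readout of hepatocyte content. Of the 4 mesenchymal miRNAs 1 was called higher in ETH, miR-143 by 0.19, with miR-199a-3p at 0.15, miR-199a-5p at 0.06 and miR-214 at 0.03 not called. In TAA none of the 5 leukocyte and none of the 3 hepatocyte miRNAs was called, where 9.88% of all miRNAs were called higher and 11.7% lower. Of the 4 mesenchymal miRNAs 1 was called lower in TAA, miR-143 at -0.19, against 11.7% of all miRNAs. There miR-199a-3p was at 0.04, miR-199a-5p at 0.01 and miR-214 at 0.00, none of them called. The part of cell makeup in the miR-34 values was not tested.

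CIDB and DMN were given in the same vehicle for the same 7 days, so they can be set against each other without control rats. miR-34a was 1.47 ± 0.12 higher in CIDB than in DMN (adjusted p = 2.3e-13), the largest of the 162 differences, of which 19.1% were called higher and 13.6% lower. miR-34b ran the other way, with a difference of -0.13 ± 0.02, lower in CIDB (adjusted p = 1.0e-06), with no overlap between the 3 CIDB and the 3 DMN rats. Within the slide that held 1 CIDB and the 3 DMN arrays the differences were 1.42 for miR-34a and -0.14 for miR-34b. In scaled signal the CIDB mean was 4.25 times the DMN mean for miR-34a and 0.486 times for miR-34b. miR-34c differed by -0.04 ± 0.01 (adjusted p = 0.0144), which was lost without CIDB replicate 1 or DMN replicate 1, and its 3 rats per group overlapped. Because miR-34b and miR-34c entered the tested set only through CIDB and DMN arrays, their p-values here are a description.

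The comparison of DMN with TAA and ETH was added after the values were seen. Each effect was taken against its own vehicle set, in CO for DMN and in MC for TAA and ETH. For miR-34a the DMN effect differed from that of TAA by 0.00 (95% interval -0.34 to 0.35) and from that of ETH by 0.08 (-0.27 to 0.42). For miR-34b the DMN effect differed from that of TAA by 0.20 (0.14 to 0.26) and from that of ETH by 0.19 (0.13 to 0.25). These miR-34b differences restate that miR-34b was detected in DMN rats and in no TAA, ETH or vehicle rat, and are given as a description. No p-value is printed for them, and calls are mentioned only to show how they depend on the processing. Over all miRNAs 9.26% were called higher in DMN minus TAA and 8.64% in DMN minus ETH. The TAA rats had 5.81, 6.78 and 4.57 scaled units of miR-34b and the ETH rats 5.51, 7.18 and 6.21, within the range of vehicle rats. With slide as a fixed block the miR-34b differences were 0.26 for TAA and 0.18 for ETH, and neither was called. With the arrays exchanged the miR-34a difference from ETH was -0.04. The CIDB effect on miR-34a exceeded that of TAA by 1.48 (12.3% called higher) and that of ETH by 1.55 (6.79% called higher), whereas for miR-34b the CIDB effect differed from that of TAA by 0.07 (0.01 to 0.13) and from that of ETH by 0.06 (0.00 to 0.12).

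**Figure D4:**
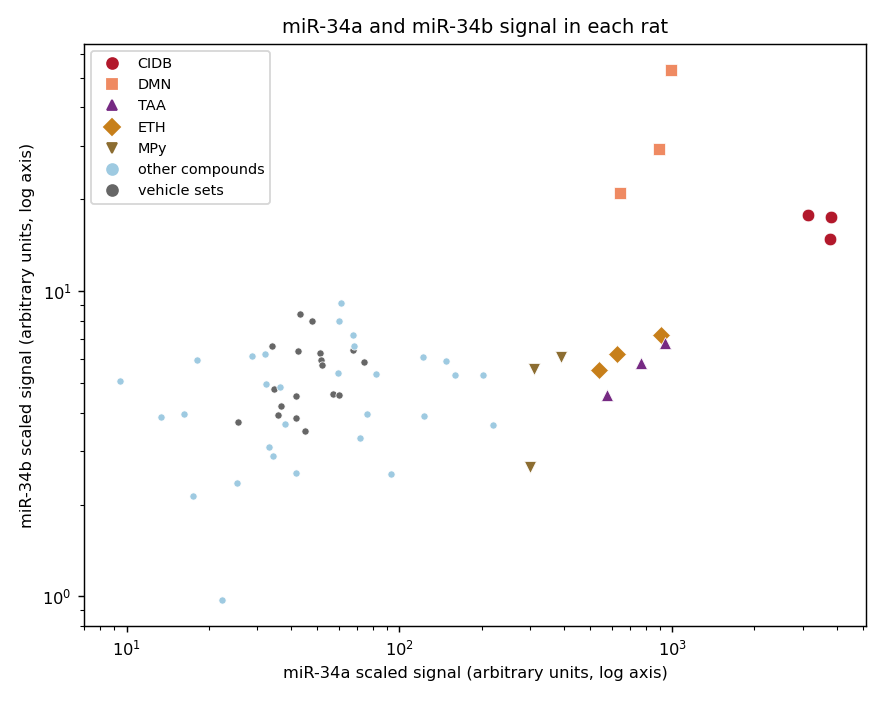
Scaled signal of miR-34a (x axis) and miR-34b (y axis) in each of 63 rats, both in arbitrary units on log axes. DMN, TAA and ETH rats share the miR-34a range from 538 to 988 units but not the miR-34b range, with DMN at 21 units or more and TAA and ETH at 7.18 or less.

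The classes were compared with the compound as the unit. For miR-34a the mean log2 fold change was 0.50 over 8 NGC and 2.70 over 2 GC, for miR-34b 0.00 and 0.14, and for miR-34c 0.00 and 0.05. Each difference gave a two-sided exact permutation p of 0.0222, the smallest that the 45 assignments of classes to compounds allow, since both GC exceeded all NGC for every member. With the arrays exchanged ETH passed DMN in miR-34a and that p was 0.0444. limma on the same compound means gave adjusted p-values of 0.104, 0.103 and 0.125 over all miRNAs. miR-34b and miR-34c entered the tested set only through CIDB and DMN, which make up the GC class. Their class p-values are therefore a description and no independent support. For miR-34c, NGC minus GC was 0.0017 with probe 1 alone (exact permutation p = 0.956). The 10 carcinogens exceeded the 2 NC by 0.92 for miR-34a, 0.04 for miR-34b and 0.01 for miR-34c, with exact permutation p-values of 0.303, 0.318 and 0.773. Both GC share CO set 3 and both NC share MC set 2, so these compounds are not independent of each other. Class and vehicle cannot be told apart here, since the GC were given in CO and the NGC and NC in MC.

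The other strands with a relation to the family carried no signal. miR-449a, which shares the seed, was marked as detected on 0 of 63 arrays and lay between 7.41 and 7.47 in every liver, genotoxic rats included. miR-34c*, the partner strand of miR-34c, was also detected on 0 arrays.

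Other miRNAs tied to p53 were followed as lists. Of 10 miRNAs that p53 is known to raise or help to mature (miR-16, miR-22, miR-107, miR-141, miR-143, miR-145, miR-192, miR-194, miR-200c and miR-215), 8 were tested, since miR-145 and miR-215 were detected on no array. In CIDB 0 of 8 were called higher and 2 lower, against 13% called higher and 7.41% lower among all miRNAs: miR-192, a hepatocyte miRNA, changed by -0.50 ± 0.07 and miR-107 by -0.14 ± 0.05. The list's median was -0.14 in CIDB and that of all tested miRNAs 0.00. In DMN 1 of 8 was called higher, miR-16, by 0.29 ± 0.10, and 1 lower, miR-143, with a change of -0.33 ± 0.06, where 13.6% were called higher and 9.88% lower among all miRNAs. Its median in DMN was -0.03. Over the 15 compounds 0 to 2 of the 8 were called higher, where 0% to 21% of all miRNAs were.

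The second list holds miRNAs of the miR-17 to miR-92 cluster, which p53 is known to lower and which promote the cell cycle (miR-17, miR-18a, miR-19a, miR-19b, miR-20a and miR-92a tested, miR-17-5p not on the array under that name). None of the 6 was called lower in CIDB or DMN, where 7.41% and 9.88% of all miRNAs were. miR-18a was the 1 of 6 called higher in both, with 13% and 13.6% of all miRNAs higher, by 0.06 ± 0.01 in CIDB and 0.04 ± 0.01 in DMN, and also in DHEA, AA, MPy and TAA. It was detected on 9 arrays, close to the reading of an unbound probe. The list's median was 0.02 in CIDB and -0.06 in DMN.

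**Figure D5:**
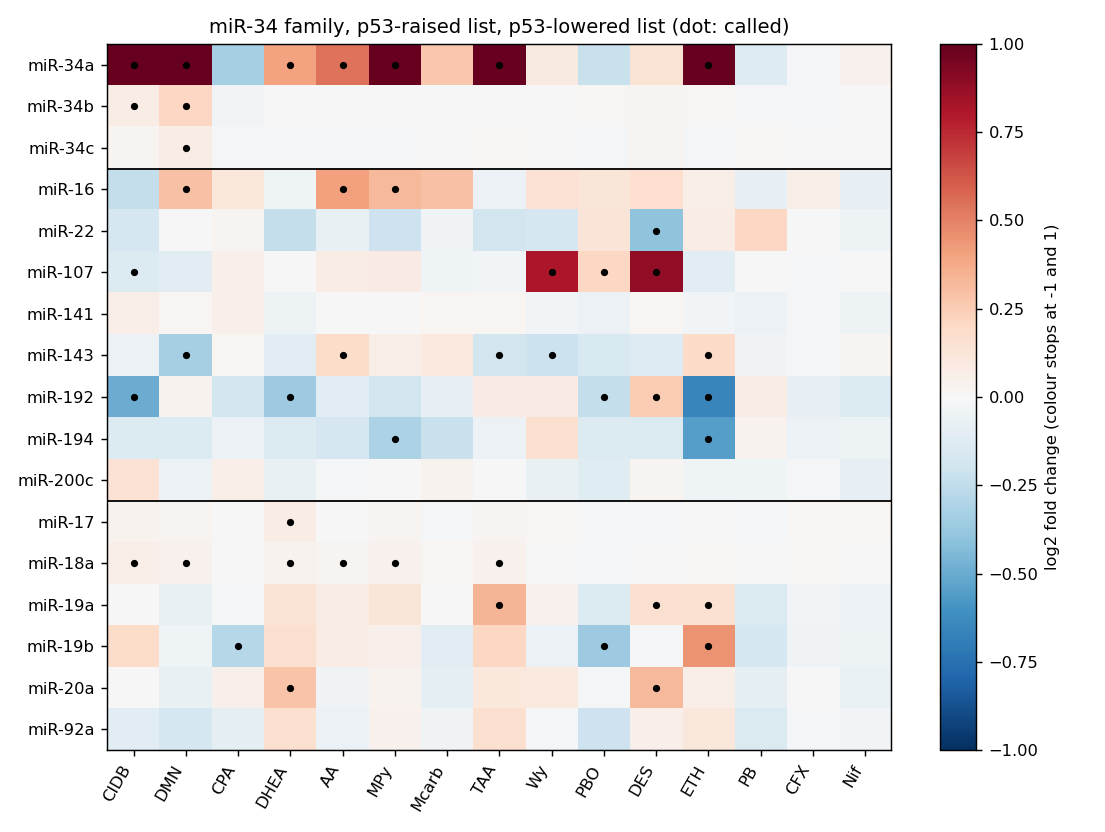
log2 fold change (colour, ending at -1 and 1) of the 3 members, the 8 tested p53-raised and the 6 tested p53-lowered miRNAs (rows) in 15 compounds (columns), with a dot where called. The miR-34a row holds 7 dots, miR-34b 2 and miR-34c 1, and in CIDB no p53-raised miRNA carries a dot for a rise.

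Across the 15 compounds the fold changes of miR-34a were most like those of miR-21* (Pearson r = 0.83), miR-18a (0.81), miR-340-5p (0.68), miR-219-5p (0.68) and miR-19b (0.68). Without CIDB these were 0.65, 0.70, 0.62, 0.72 and 0.72. miR-21*, the partner strand of the injury-related miR-21, was called higher in CIDB by 0.08 ± 0.02 (adjusted p = 9.9e-05) but was detected on 2 arrays. miR-18a was detected on 9 arrays, miR-340-5p on 6, miR-219-5p on 25 and miR-19b on all 63. The fold changes of miR-34b were most like those of miR-146b (0.85), miR-542-3p (0.71) and miR-223 (0.69), of which miR-146b fell to 0.32 and miR-223 to -0.61 without DMN. miR-146b and miR-542-3p were detected on 3 arrays each, so most of the values behind these correlations lie near the reading of an unbound probe, whereas miR-223 was detected on all 63. Within the family r was 0.56 for miR-34a with miR-34b, 0.48 for miR-34a with miR-34c and 0.89 for miR-34b with miR-34c. Outside CIDB and DMN both miR-34b and miR-34c lay near the reading of an unbound probe, and their r without DMN was not computed. These correlations describe 15 compounds of which 6 share MC set 1 and others share further vehicle sets, and no p-value was attached.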

How the data were processed

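Liver RNA of 63 rats was hybridised to 1-colour Agilent rat miRNA arrays (1 per rat). The deposited scanner files, read by Agilent Feature Extraction 10.7.3.1, hold spot intensity that the authors had not normalized, and the deposited value table holds the authors' log2 values of 135 miRNAs, made with RMA without background correction per the study's methods; it lists miR-34a and miR-34b and was used as an alternative. Here mean intensity was taken without control and outlier-marked spots (2.87%), quantile-normalized, averaged per probe, put on the log2 scale and median-polished per miRNA. limma 3.58.1 in R 4.3.3 fitted 21 groups, with Benjamini-Hochberg adjustment over the 162 miRNAs detected on at least 1 array. The fit was tested on simulated data. Class differences were tested by exact permutation over compounds. No spot was saturated, and the 3 arrays per group limit the precision.

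The members, lists and likeness counts (5 miRNAs for miR-34a, 3 for miR-34b) were chosen with earlier results of these data known. Named were the members in all compounds, array miRNAs with their seed, list members called in CIDB or DMN, the miRNAs most like miR-34a and miR-34b, and the marker lists. Alternatives were background correction, scaling, filter, slide (9), scan day (3), reference rats, samples in the fit, single probes, left-out rats and array assignment. Same-numbered rats were not paired, since correlations of their deviations ranged from -0.26 to 0.25.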

Additional observations from a re-analysis of the deposited data

Results flagged for a closer look

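CIDB and DMN were tested directly against each other for each member. miR-34a was higher in CIDB by 1.473 (log2; higher in 3 of 3 rats than in every DMN rat), miR-34b differed by -0.133 (lower in 3 of 3 CIDB rats) and miR-34c by -0.042, with overlapping rats. The adjusted p-values in limma were 2.3e-13, 1.0e-06 and 0.0144. The signs of miR-34a and miR-34b were the same in the authors' value table, in the scaled signal and with either probe alone, and for miR-34c the sign turned with 1 probe alone. No further result was singled out: groups of 3 rats are too small for a search for outlying arrays.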

How the results depend on the processing

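Directions of miR-34a in CIDB, DMN, ETH, TAA and MPy and their calls held under all 15 alternatives each. The number of compounds in which miR-34a was called higher ran from 5 to 8. The number for miR-34b, 2 as reported, was 1 with slide as a fixed block or with probe 1 alone, 0 with only the compared groups in the fit, and 1 to 2 when each rat was left out in turn. The number for miR-34c, 1 as reported, was 2 with either scaling of the processed signal, with all controls of the vehicle or with probe 2 alone, and 0 with only the compared groups or with probe 1 alone. CIDB minus DMN for miR-34b was not called with scaling over all probes (-0.78, adjusted p = 0.0693) or with only the compared groups (-0.13, adjusted p = 0.139). For miR-34c it was not called with either scaling (-0.87 and -0.68) or only the compared groups (-0.042), was 0.0091 with probe 1 alone, and ran from -0.055 to -0.023 with rats left out. Probe 1 alone also turned the miR-34c fold change in DMN (-0.0059) and its class difference of NGC minus GC (0.0017), which was -0.069 with slide as a fixed block (exact permutation p = 0.0667). The class difference of miR-34a was -3.24 in the value table (exact permutation p = 0.0667). The cause of these changes was not tested, beyond the fewer samples in the fit of the compared groups.

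The excess of the DMN effect in miR-34b was not called with slide as a fixed block (0.26 over TAA, 0.18 over ETH) or with only the compared groups (0.20 and 0.19). The excess of CIDB over TAA in miR-34b became called in the value table (0.59), with scaling over all probes (1.29), with all controls of the vehicle (0.068), with only the compared groups (0.070) and with probe 2 alone (0.11), and that over ETH in the value table (0.53). The excess of CIDB over ETH in miR-34a was not called in the value table (0.97).

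The titles of PB and MC set 6, of CPA and CO set 4, and of CIDB and DMN share replicate numbers. With the replicate number as a block, CIDB minus DMN was 1.47 for miR-34a, -0.13 for miR-34b and -0.04 for miR-34c, the numbers of compounds called higher were 7, 2 and 1, and no call of a member changed. The calls over all miRNAs were 53 with and without the block for CIDB minus DMN, 6 and 5 for PB, and 8 and 9 for CPA. Without the 15 arrays in doubt, an alternative chosen after seeing the data, each remaining MC compound was set against MC set 6, and miR-34a, miR-34b and miR-34c were called higher in 6, 2 and 1 of 13 compounds. miR-34c had no value in the value table or among miRNAs detected on every array of a group. Both miR-34b and miR-34c lay close to background outside CIDB and DMN, so a small change there was not detectable.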
